A study of Mus musculus with 6 samples.

Results

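The endothelin genes of the mouse are those of the ligands (Edn1, Edn2 and Edn3), the receptors (Ednra and Ednrb) and the converting enzymes (Ece1 and Ece2). Their rows were found by gene symbol in a table of 49548 genes, and all 7 of the 7 listed genes were present. The data are 3′ mRNA sequencing (QuantSeq) of cancer-associated fibroblasts (CAFs) from colonic adenomas of C57/BL6 mice that carried Col6a1-Cre and the Rosa26-mTmG reporter and had received the AOM/DSS protocol, a carcinogen followed by colitis. Cre recombination in these mice replaces membrane Tomato by GFP, so GFP+ cells (Col6a1+ CAFs) are those in which Col6a1-Cre was or had been active, and Tomato+ cells (Col6a1- CAFs) are the others. Both groups were sorted as negative for CD45, EpCAM, CD31 and Ter119, and each group had 3 libraries, with the same replicate numbers in both. The study's text gives each sample as a pool of tumors from several mice. It describes the Cre line as active in PDGFRα-high fibroblasts and in perivascular cells, and the Col6a1- cells as trophocytes and most PDGFRα-low fibroblasts. By that description each group is a mixture of mesenchymal cells, but markers of other cells were also present, as given below. All 6 libraries came from adenomas, and no normal tissue is analysed here.

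Endothelins are short peptides that are cut from longer precursors, first by furin-type proteases and then by the membrane metalloproteases endothelin-converting enzyme 1 and 2. They act on 2 G protein-coupled receptors, of which the type A receptor (Ednra) is best known for contraction of vascular smooth muscle, while the type B receptor (Ednrb) binds the ligands with similar affinity, clears endothelin from the circulation and, with endothelin-3, is required for the enteric nervous system to form. Vascular endothelium and epithelia are known sources of endothelin-1, and pericytes and smooth muscle cells are known to carry the receptors.

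Both receptors were higher in Col6a1+ CAFs than in Col6a1- CAFs, by 14.3-fold (Ednra) and 29.2-fold (Ednrb) in the ratio of the group means, and Ece1 was 2.94-fold higher. The ligand Edn1 was 7.55-fold lower in the mean of the Col6a1+ CAFs, with no overlap between the groups, but it did not pass the threshold after adjustment. Edn2 was close to the limit of detection in both groups. Edn3, which had low counts, and Ece2 overlapped between the groups. Without pairing of the libraries, 3 of the 7 genes had an adjusted p under 0.05 in limma and were higher in Col6a1+ CAFs. Of the 26402 genes tested, 2.66% were called higher and 4.62% in either direction. None of the 7 was lower at that threshold, against 1.96% of all genes. At an unadjusted p under 0.05, 1 (Edn1) was lower, against 9.4% of all genes. With a block for the replicate numbers over the same 26402 genes, no gene was called (adjusted p of 0.0612 or more in limma). The groups did not overlap in 5 of the 7 genes, against 19.5% of all genes: 3 were higher in every Col6a1+ library (Ednra, Ednrb and Ece1, against 7.91% of all genes) and 2 lower (Edn1 and Edn2, against 11.6%). The values are normalized counts, which are the reads per gene that the authors divided by a size factor of each library. All log2 fold changes below are differences of the group means of log2 (normalized count plus 1), taken as Col6a1+ minus Col6a1-. The median of this difference over all genes was -0.27, and over the 7 endothelin genes 0.60.

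**Figure D1:**
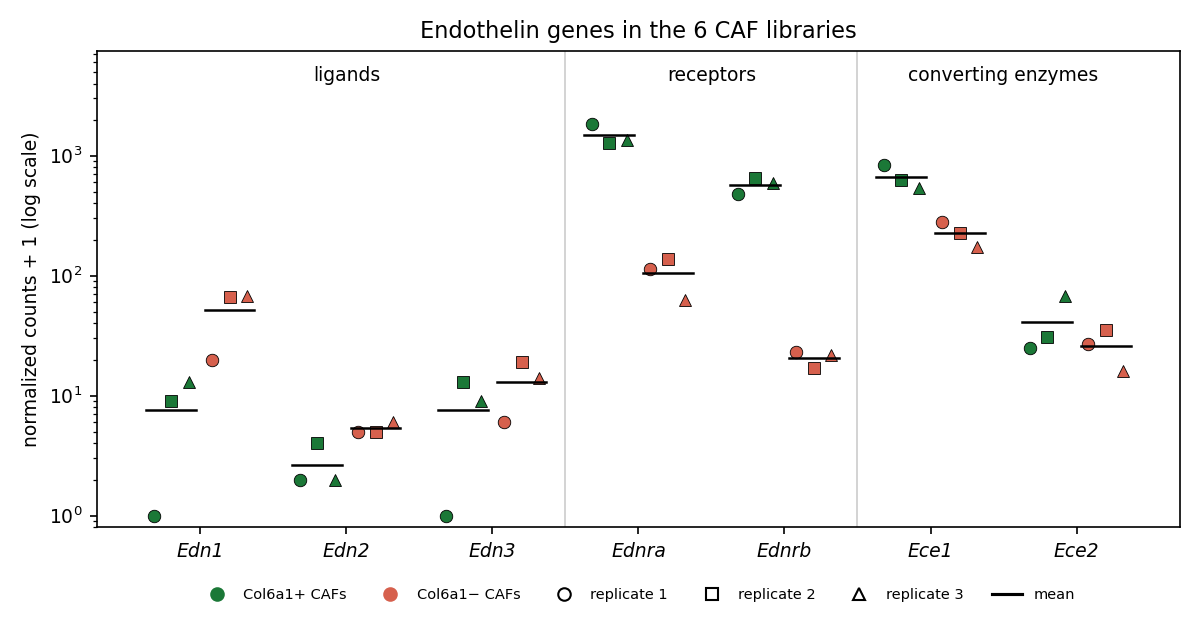
Normalized counts plus 1 (log axis) of the 7 endothelin genes in each library of Col6a1+ CAFs (green) and Col6a1- CAFs (red), with the symbol giving the replicate number and the black line the group mean. Both receptors and Ece1 are higher in every Col6a1+ library (Ednra between 1276 and 1825 against 62 to 137), while Edn1 is lower in every Col6a1+ library (0 to 12 against 19 to 67).

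The libraries held sums of 3039152 to 3425249 normalized counts. Low values rise in steps that show what 1 read is worth (0.661 to 1.331 normalized counts), which gave 2568312 to 4597809 reads in the 5 libraries with a clear step. A gene at 0 in a library can thus hold up to 3 reads, or 1.98 to 3.99 normalized counts, by counting error alone. Col6a1+ replicate 1 stood apart with 14530 genes detected, while the other 5 libraries had 18770 to 20511. Col6a1, whose promoter drives the Cre, had 861, 1287 and 1941 normalized counts in Col6a1+ replicates 1 to 3 and 182, 321 and 102 in Col6a1- replicates 1 to 3, a log2 fold change of 2.82 (SE 0.44, adjusted p = 0.00613 in limma) and higher in the group labelled as Col6a1+. Markers of cells that the sort should have removed were present. The sum of 10 epithelial markers was 5353 to 5660 normalized counts in Col6a1+ CAFs and 18829 to 30919 in Col6a1- CAFs. Of the 10, 8 were lower in Col6a1+ CAFs at an adjusted p under 0.05 in limma. The sum of 8 pan-fibroblast markers was 42619 to 46297 in Col6a1+ CAFs and 8733 to 15884 in Col6a1- CAFs. The epithelial sum was thus the larger in every Col6a1- library and the smaller in every Col6a1+ library.

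How the calls read depended on the pairing of the libraries by replicate number and on the filter for low counts. The deviations of same-numbered libraries from their group means had correlations of 0.245, 0.126 and 0.144 across 13515 genes, and those of libraries with unlike numbers -0.245 to 0.150, the highest of which (Col6a1+ replicate 2 with Col6a1- replicate 3) exceeded 2 of the 3 same-numbered values. Every same-numbered value was over 0.1, but so was the highest value of unlike numbers, so these values do not settle the pairing. The study's text counts 3 samples in total, each a pool of tumors from several mice, without saying which libraries share a pool. The main fit used no pairing, and a block that reads the numbers as pairs was run as an alternative. Calls, intervals and ranks given without mention of the block are from the unpaired fit. A block for the pairs left no gene of the 26402 with an adjusted p under 0.05 in limma, although 1851 genes were higher and 2567 lower at an unadjusted p under 0.05. With the block, the adjusted p was 0.0612 for Ednra, 0.0612 for Ednrb and 0.0635 for Ece1. When the same blocked fit was restricted to the 13515 genes averaging 10 or more normalized counts, these genes had adjusted p-values of 0.00102, 0.000967 and 0.00614, and 13.7% of the genes were called, 7.26% as higher. Among those 13515 genes, 981 were called higher and 871 lower with the block, against 815 and 608 without it.

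The ligands are encoded on chromosome 13 (Edn1, 42301270 to 42307989), chromosome 4 (Edn2, 120161206 to 120167360) and chromosome 2 (Edn3, 174760619 to 174784042), all on the plus strand of mm10 as the table gives them, and each has 5 exons in the first GENCODE transcript. The coding stretch of the mature peptide lies in exon 2 of each gene and is shown because it is what makes the ligands a family, with 63 bases for 21 codons and the 4 cysteine codons of the disulfide bridges in capitals.
Edn1, chr13:42303649-42303711, plus strand: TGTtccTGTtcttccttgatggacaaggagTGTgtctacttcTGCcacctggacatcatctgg
Edn2, chr4:120161951-120162013, plus strand: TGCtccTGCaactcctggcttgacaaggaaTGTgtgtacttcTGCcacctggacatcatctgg
Edn3, chr2:174761749-174761811, plus strand: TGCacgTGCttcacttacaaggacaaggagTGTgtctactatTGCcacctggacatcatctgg
The sequences were read from the GENCODE transcripts on GRCm38, the assembly that mm10 names. Edn1 and Edn2 differ at 10 of the 63 bases and in 3 of the 21 amino acids encoded. Edn3 differs from Edn1 at 13 bases and 6 amino acids, and from Edn2 at 15 bases and 6 amino acids. The longest identical run between whole transcripts was 29 bases for Edn1 with Edn2 and 21 bases for each of the other pairs of ligands, while the reads come from the 3′ ends of transcripts.

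Edn1, which encodes endothelin-1, had 0, 8 and 12 normalized counts in Col6a1+ replicates 1 to 3 and 19, 65 and 67 in Col6a1- replicates 1 to 3. The highest Col6a1+ library lay below the lowest Col6a1- library. The means were 6.67 ± 6.11 and 50.3 ± 27.2 normalized counts (SD, n = 3 each), and the log2 fold change was -3.19 (95% interval -5.58 to -0.81, SE 1.08). The adjusted p of 0.144 in limma did not pass the threshold, at an unadjusted p of 0.0136 in the same fit across all genes. In the blocked fit of genes averaging 10 or more the adjusted p was 0.0385, where 6.44% of the genes were called lower, and over all alternatives it ranged from 0.0385 to 0.556. The lone zero was in Col6a1+ replicate 1, the library with the fewest genes detected, where 3 reads amount to 2.56 normalized counts.

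Edn2, which encodes endothelin-2, had 1, 3 and 1 normalized counts in Col6a1+ CAFs and 4, 4 and 5 in Col6a1- CAFs. No value exceeded 5, and in both groups the values are of the size that a few reads give. The summed normalized counts, taken as counts, were 5 and 13, a ratio of 0.385 with an exact 95% interval of 0.107 to 1.15 that covers counting error only. The adjusted p was 0.603 in limma.

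Edn3, the ligand that acts with Ednrb in the enteric nervous system, had 0, 12 and 8 normalized counts in Col6a1+ CAFs and 5, 18 and 13 in Col6a1- CAFs. The groups overlapped, with means of 6.67 ± 6.11 and 12 ± 6.56 (SD, n = 3 each), while within each of the 3 replicate numbers the Col6a1+ library was the lower. The log2 fold change was -1.26 (95% interval -3.86 to 1.34), with an adjusted p of 0.636 in limma, so differences in both directions lie within the interval. The ligands together had 1, 23 and 21 normalized counts in Col6a1+ CAFs and 28, 87 and 85 in Col6a1- CAFs.

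Epithelial and immune marker sums were lower in Col6a1+ CAFs, as Edn1 was, and the part of other cell types in the Edn1 difference was not tested. Besides the epithelial sum given above, Epcam itself, the surface protein used in the sort, had 1074, 884 and 615 normalized counts in Col6a1+ CAFs and 3107, 4129 and 3730 in Col6a1- CAFs. The sum of 10 immune markers was 34 to 71 in Col6a1+ CAFs and 268 to 454 in Col6a1- CAFs, with 1 of the 10 called lower. Of the 10 endothelial markers, 8 had a negative and 2 a positive log2 fold change, and the 2 positive ones, Esam and Tie1, were called and set the sum, which was 1154 to 1536 in Col6a1+ CAFs and 367 to 650 in Col6a1- CAFs. Pecam1, which encodes CD31, had 0, 21 and 27 normalized counts in Col6a1+ CAFs and 13, 64 and 44 in Col6a1- CAFs. The sum of 5 erythroid markers overlapped between the groups, with 74 to 987 in Col6a1+ CAFs and 187 to 346 in Col6a1- CAFs. In these bulk libraries, fewer cells of a type and less RNA per cell cannot be told apart.

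**Figure D2:**
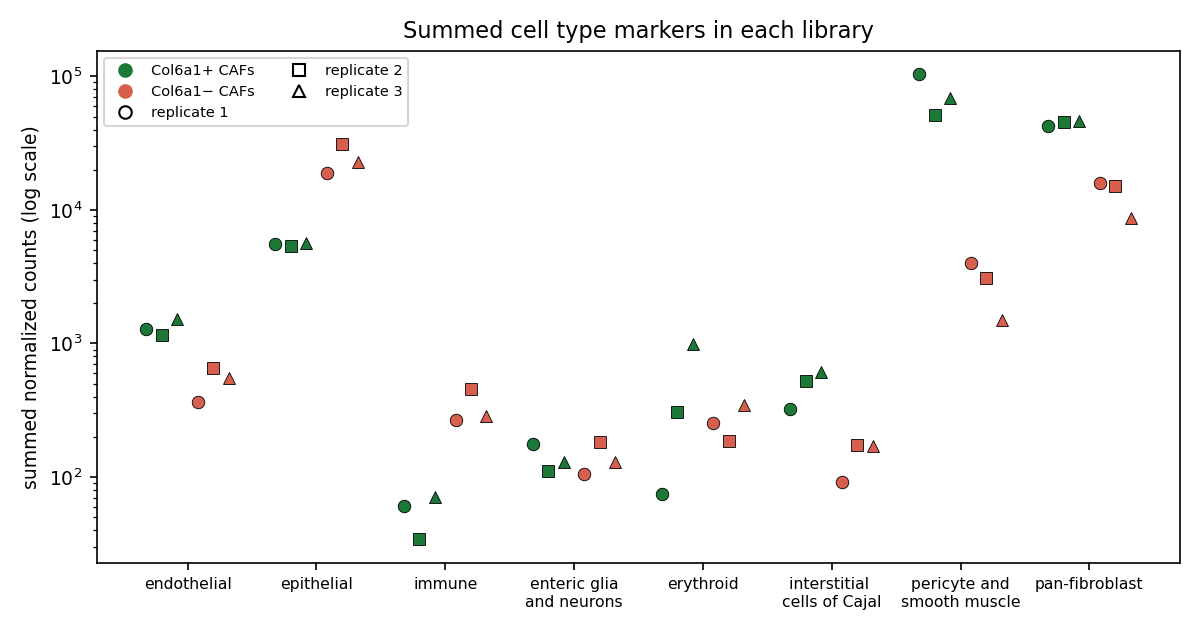
Summed normalized counts (log axis) of 8 marker lists in each library of Col6a1+ CAFs (green) and Col6a1- CAFs (red), with the symbol giving the replicate number. The epithelial and immune sums are lower in every Col6a1+ library. The pericyte and smooth muscle sum (51441 to 104136 against 1501 to 3993) is higher in every Col6a1+ library. So are the pan-fibroblast, endothelial and interstitial cell of Cajal sums, while the erythroid sum and the glial and neuronal sum overlap.

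The receptor genes lie on the minus strand, Ednra on chromosome 8 (77663031 to 77724464) and Ednrb on chromosome 14 (103814625 to 103844173), with 8 exons each in the first GENCODE transcript. Their promoter windows are shown because both genes differed between the groups in the same direction. Each window runs from 250 bases before to 50 bases after the RefSeq start site on GRCm38.p6, in the direction of the gene, with capitals for the E-box match (CANNTG) in Ednra and the GCGTG matches, on either strand, in Ednrb.
Ednra, chr8:77724403-77724702, minus strand: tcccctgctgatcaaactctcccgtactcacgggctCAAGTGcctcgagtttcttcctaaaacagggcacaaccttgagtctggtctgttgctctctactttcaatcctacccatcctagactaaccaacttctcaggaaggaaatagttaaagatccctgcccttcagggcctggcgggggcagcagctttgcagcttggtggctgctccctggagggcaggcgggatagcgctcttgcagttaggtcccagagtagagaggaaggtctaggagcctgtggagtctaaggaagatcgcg
Ednrb, chr14:103843652-103843951, minus strand: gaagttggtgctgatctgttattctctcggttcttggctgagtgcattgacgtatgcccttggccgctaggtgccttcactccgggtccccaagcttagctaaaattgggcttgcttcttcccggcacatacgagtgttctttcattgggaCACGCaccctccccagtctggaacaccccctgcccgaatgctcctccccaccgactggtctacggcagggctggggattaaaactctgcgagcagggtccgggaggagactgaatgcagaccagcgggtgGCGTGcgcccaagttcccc
The Ednrb window lies inside the span that the table gives for the gene, since RefSeq places the start site there. Both strands were searched for the E-box and for the CArG box of serum response factor. The RBPJ core was searched as TGGGAA. One hypoxia response core was searched as ACGTG, which can overlap an E-box. The other hypoxia response core was searched as GCGTG. Ednra had 1 E-box, a motif found in 72.3% of 32851 RefSeq promoter windows of the same length, and none of the other motifs. Ednrb had 2 GCGTG matches, a motif found in 32.4% of the windows, and none of the others. The RBPJ core was in 25.6% of all windows, ACGTG in 19.6% and the CArG box in 1.63%, and neither receptor window held any of these 3.

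Ednra, the type A receptor, had 1825, 1276 and 1357 normalized counts in Col6a1+ replicates 1 to 3 and 112, 137 and 62 in Col6a1- replicates 1 to 3. The lowest Col6a1+ library lay far above the highest Col6a1- library. The means were 1486 ± 296 and 104 ± 38.2 (SD, n = 3 each), and the log2 fold change was 3.88 (95% interval 3.11 to 4.66, SE 0.35) with an adjusted p of 5.87e-04 in limma. By p-value it was number 19 among the 26402 genes. An antisense gene that spans Ednra, 4933431K23Rik, had 4 normalized counts in Col6a1+ replicate 2 and 0 in the other 5 libraries.

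Ednrb, the type B receptor, had 478, 656 and 588 normalized counts in Col6a1+ CAFs and 22, 16 and 21 in Col6a1- CAFs. Replicate spread was small in both groups, with means of 574 ± 89.8 and 19.7 ± 3.21 (SD, n = 3 each). The log2 fold change was 4.80 (95% interval 4.0 to 5.59, SE 0.36) with an adjusted p of 2.41e-04 in limma, number 7 among all genes by p-value. The longest identical run between the Ednra and Ednrb transcripts was 15 bases.

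The 2 receptors and Ece1 kept their direction when any 1 library was left out, but their calls were not kept in every such fit. For Ednra and Ednrb the adjusted p in limma was 0.0503 without Col6a1+ replicate 1, 0.0924 without Col6a1+ replicate 2, 0.140 without Col6a1+ replicate 3 and 0.0581 without Col6a1- replicate 1, and no gene of the table was called in those 4 fits. It was 0.0462 without Col6a1- replicate 2 and 0.0367 without Col6a1- replicate 3.

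Markers of pericytes and smooth muscle moved with the receptors, and their part in the difference was not tested. Their sum over 10 genes was 51441 to 104136 normalized counts in Col6a1+ CAFs and 1501 to 3993 in Col6a1- CAFs, and 9 of the 10 were called higher. Pan-fibroblast markers were also higher, with a sum of 42619 to 46297 against 8733 to 15884 and 5 of 8 genes called. The 3 markers of interstitial cells of Cajal summed to 321 to 614 against 91 to 174, with 1 of 3 called. Enteric glia and neurons, in which Ednrb is known from development, gave sums that overlapped (110 to 175 against 106 to 183). Of the 7 tested markers of this list, 6 had a positive log2 fold change and 1 a negative one, and none was called. The negative one was Ret, with 96, 30 and 20 normalized counts in Col6a1+ CAFs and 83, 111 and 70 in Col6a1- CAFs. The overlap of the sums therefore does not show equal levels of these markers. The glial factor Sox10 had 34, 4 and 1 normalized counts in Col6a1+ CAFs and 0 in every Col6a1- library.

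The proportion of the receptors, taken from their counts, overlapped between the groups. Ednrb made up 20.8%, 34.0% and 30.2% of the summed receptor counts in Col6a1+ CAFs and 16.4%, 10.5% and 25.3% in Col6a1- CAFs, so Ednra was the larger part in all 6 libraries. The log2 ratio of Ednrb to Ednra averaged -1.36 ± 0.51 (SD, n = 3) in Col6a1+ libraries and -2.28 ± 0.75 (SD, n = 3) in Col6a1- libraries. The difference of 0.91 had p = 0.2 in a two-sided exact permutation test, in which 3 against 3 libraries allow no p below 0.1. Within each of the 3 replicate numbers the ratio was higher in the Col6a1+ library, and with the numbers as pairs the exact sign-flip permutation p was 0.25, the smallest that 3 pairs allow.

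Ece1, on the plus strand of chromosome 4 (137862237 to 137965229, with 20 exons in the first GENCODE transcript), encodes the main enzyme that cuts big endothelin-1 to the active peptide. It had 833, 628 and 535 normalized counts in Col6a1+ CAFs and 280, 228 and 172 in Col6a1- CAFs, with no overlap. The means were 665 ± 152 and 227 ± 54.0 (SD, n = 3 each), and the log2 fold change was 1.55 (95% interval 0.86 to 2.25, SE 0.31) with an adjusted p of 0.0204 in limma. Without any 1 library the call was lost, with adjusted p-values of 0.0815 to 0.164 and log2 fold changes of 1.37 to 1.72. The antisense gene Gm13012 within Ece1 was at 0 in all 6 libraries. For comparison, the median log2 fold change was 1.93 over the 8 pan-fibroblast markers and -2.12 over the 10 epithelial markers. The part of the cell mixture in the Ece1 difference was not tested.

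Ece2, the related enzyme known mainly from nervous and endocrine tissue, had 24, 30 and 67 normalized counts in Col6a1+ CAFs and 26, 34 and 15 in Col6a1- CAFs. The groups overlapped, and the log2 fold change was 0.60 (95% interval -0.79 to 2.00, adjusted p = 0.642 in limma). These counts are uncertain as a measure of Ece2: the table's row starts at 20611593 on chromosome 16 and ends at 20646485, while GENCODE places Ece2 from 20629828 and the separate gene Eef1akmt4 from 20611593 to 20619011 on the same strand. Camk2n2, on the other strand within the row, had 0, 18 and 17 normalized counts in Col6a1+ CAFs and 16, 5 and 8 in Col6a1- CAFs. The longest identical run between the Ece1 and Ece2 transcripts was 17 bases.

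Ece1 held most of the converting enzyme counts in every library, with 97.2%, 95.4% and 88.9% of the sum of both enzymes in Col6a1+ CAFs and 91.5%, 87.0% and 92.0% in Col6a1- CAFs. The log2 ratio of Ece1 to Ece2 was 4.13 ± 1.06 and 3.17 ± 0.40 (SD, n = 3 each), and its difference of 0.95 had p = 0.3 in the two-sided exact permutation test and p = 0.5 in the exact sign-flip permutation of the pairs.

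**Figure D3:**
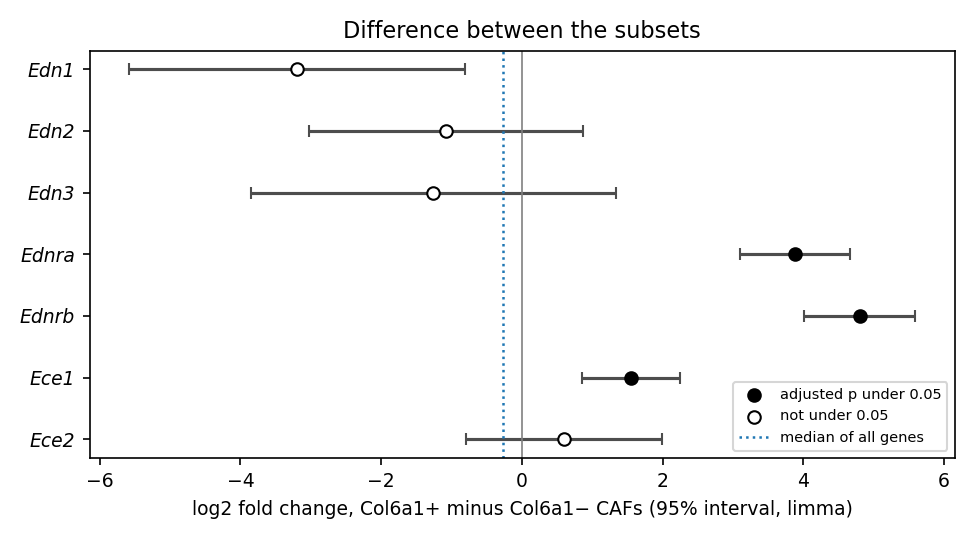
Log2 fold change of each endothelin gene, Col6a1+ minus Col6a1- CAFs, with the 95% interval from limma without the replicate block. Filled points have an adjusted p under 0.05 in that fit, and the dotted line is the median of all genes (-0.27). The intervals of Ednra, Ednrb and Ece1 lie above 0, that of Edn1 (-5.58 to -0.81) lies below 0 but its adjusted p is 0.144, and those of Edn2, Edn3 and Ece2 span 0.

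Levels can be ordered across the genes per kb of the length that the table uses for each gene. The reservation is that 3′ reads do not grow in number with transcript length, so the division itself shifts the order. The length used for Ece2 (7863 bases) is that of its whole row, which also spans Eef1akmt4. In Col6a1+ CAFs the level per kb was 334 ± 66.6 normalized counts for Ednra, 155 ± 24.3 for Ednrb and 90.7 ± 20.8 for Ece1 (SD, n = 3 each), and these 3 did not overlap between libraries. Below them, Ece2 (5.13 ± 2.96), Edn1 (2.82 ± 2.58), Edn3 (1.97 ± 1.81) and Edn2 (0.885 ± 0.613) each overlapped between libraries with the next in this order. In Col6a1- CAFs the order changed: Ece1 (30.9 ± 7.36 per kb), Ednra (23.3 ± 8.58) and Edn1 (21.3 ± 11.5) came first and overlapped. Ednrb (5.32 ± 0.87), Edn3 (3.55 ± 1.94), Ece2 (3.18 ± 1.21) and Edn2 (2.30 ± 0.306) followed, and each overlapped between libraries with the next. By normalized counts without division by length the order differed. Ece1 (665) then lay above Ednrb (574) in the means of Col6a1+ CAFs. In Col6a1- CAFs, Ece1 (172 to 280) lay above Edn1 (19 to 67) and Ednra (62 to 137) with no overlap, and Ece2 (mean 25) lay above Ednrb (mean 19.7). Summed by role, the receptors had 2303, 1932 and 1945 normalized counts in Col6a1+ CAFs and 134, 153 and 83 in Col6a1- CAFs, and the enzymes 857, 658 and 602 against 306, 262 and 187.

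The genes that act around the endothelin receptors were described by 5 lists with 59 genes, of which 54 were tested. Of these, 8 rose above and 1 fell below the Col6a1- level at an adjusted p under 0.05 in limma, against 2.66% and 1.96% of all genes, and the median log2 fold change was 0.40. With the replicate block none was called, with adjusted p-values of 0.0612 and more, while the blocked fit of genes averaging 10 or more called 10 higher and 1 lower, where 7.26% and 6.44% of the genes were called. For the counts at an unadjusted p under 0.05 that follow, 6.63% of all genes were higher and 9.4% lower. Without Col6a1+ replicate 1, 2 or 3 or Col6a1- replicate 1 none was called, and without Col6a1- replicate 2 or 3 there were 2 and 3 higher and 0 lower.

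**Figure D4:**
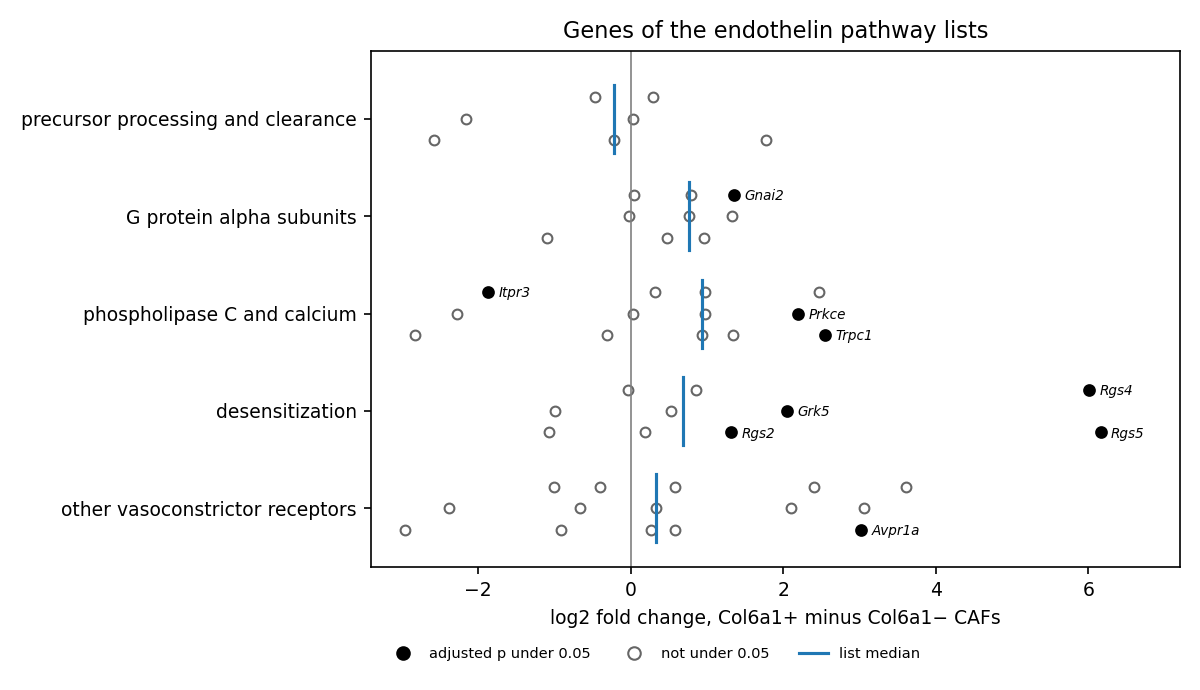
Log2 fold change, Col6a1+ minus Col6a1- CAFs, of the tested genes of 5 pathway lists. Filled and named points have an adjusted p under 0.05 in limma without the replicate block, and the blue bar is the list median. The called genes lie to the right of 0 apart from Itpr3, and the list of precursor processing and clearance has none.

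Upstream of the receptors, precursor processing and clearance (furin-type proteases, chymase and peptidases that degrade endothelins) had 7 tested genes, since Mmel1, Kel and Ecel1 were at 0 in all libraries. None passed in limma, 1 was higher and 1 lower at an unadjusted p under 0.05, and the median log2 fold change was -0.22. Mme, which encodes neprilysin, a peptidase that breaks down endothelins, had 0 normalized counts in all Col6a1+ libraries and 8, 0 and 23 in Col6a1- CAFs (adjusted p = 0.273), so the Col6a1- values rest on 2 libraries. Cma1, mast cell chymase, had 0, 6 and 1 normalized counts against 11, 25 and 3 (adjusted p = 0.402).

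Of the 9 G protein alpha subunits, 1 was higher and none lower in limma (3 higher and 0 lower at an unadjusted p under 0.05), with a median of 0.76. Gnai2, an inhibitory subunit, had 1827, 1360 and 2604 normalized counts in Col6a1+ CAFs and 751, 758 and 669 in Col6a1- CAFs (log2 fold change 1.36, adjusted p = 0.0285). Gna13, of the G12 family, had 549, 431 and 298 against 108, 188 and 215, and Gna14, of the Gq family, 104, 54 and 35 against 93, 194 and 109. Neither passed, with adjusted p-values of 0.0752 and 0.314.

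Among 13 genes of phospholipase C and calcium, 2 were higher and 1 lower (3 and 2 at an unadjusted p under 0.05), with a median of 0.93. Trpc1, a calcium-permeable cation channel, had 83, 87 and 91 normalized counts in Col6a1+ CAFs and 17, 16 and 10 in Col6a1- CAFs (log2 fold change 2.55, adjusted p = 0.0192). Prkce, a protein kinase C, had 134, 60 and 64 against 14, 16 and 21 (2.19, adjusted p = 0.0480).
The called gene in the other direction was Itpr3, an inositol trisphosphate receptor of the endoplasmic reticulum, with 62, 38 and 27 normalized counts in Col6a1+ CAFs and 170, 150 and 130 in Col6a1- CAFs (log2 fold change -1.87, adjusted p = 0.0355). Cacna1c, the L-type calcium channel, had 92, 66 and 121 against 34, 7 and 15 and did not pass (adjusted p = 0.0540, and 0.0268 in the blocked fit of genes averaging 10 or more). Plcb1, a phospholipase C, had 0, 15 and 7 against 32, 31 and 42 (adjusted p = 0.196), and it overlaps Gm14036 on the same strand, which had a higher mean.

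Of the 10 genes of desensitization (receptor kinases, arrestins and RGS proteins, which end G protein signals), 4 were higher and none lower (also 4 and 0 at an unadjusted p under 0.05), with a median of 0.69. Rgs5 had 42173, 29648 and 31282 normalized counts in Col6a1+ CAFs and 509, 700 and 297 in Col6a1- CAFs (log2 fold change 6.16, adjusted p = 1.01e-04), and it also stands in the pericyte list. Rgs4 had 1382, 830 and 1800 against 24, 17 and 16 (6.02, adjusted p = 1.16e-04). Rgs2, which acts on Gq, had 1322, 2317 and 1313 against 743, 744 and 472 (1.31, adjusted p = 0.0482).
Grk5, a kinase of G protein-coupled receptors, had 399, 281 and 202 normalized counts against 69, 86 and 52 (2.05, adjusted p = 0.0139), and it overlaps Zfp950 on the other strand. Grk3 had means of 25 and 38 (adjusted p = 0.603) and Arrb2, an arrestin, 39 and 59.7 (adjusted p = 0.577).

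Receptors of other vasoconstrictors were compared to set the endothelin receptors beside their class. Of 17 listed, Htr2a and Uts2r were at 0 in all libraries, 15 were tested, 1 was higher and none lower (4 and 1 at an unadjusted p under 0.05), and the median was 0.33. Avpr1a, the vascular vasopressin receptor, had 140, 191 and 133 normalized counts in Col6a1+ CAFs and 46, 12 and 10 in Col6a1- CAFs (log2 fold change 3.03, adjusted p = 0.0177). Agtr1a, the angiotensin II type 1 receptor, had 93, 21 and 47 against 5, 8 and 0 (3.61, adjusted p = 0.0832), and Adra1b, an adrenergic receptor, 89, 24 and 154 against 10, 8 and 5 (3.07, adjusted p = 0.0521, and 0.0367 in the blocked fit of genes averaging 10 or more). Summed, this list had 353 to 447 normalized counts in Col6a1+ CAFs and 109 to 187 in Col6a1- CAFs.

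The genes most like each endothelin gene were found by the root mean square difference of mean-centred log2 values over the 6 libraries, among the genes averaging 10 or more normalized counts. Nearest to Ednra were Adamtsl1 (0.197), Prkar2b (0.214) and Slc38a11 (0.231), and 60 of 13514 genes lay within 0.5. Nearest to Ednrb were Foxs1 (0.286), Gcgr (0.343) and Nes (0.364), with 10 genes within 0.5. In Col6a1- CAFs Gcgr was at 0 and Nes had a mean of 5.33 normalized counts, so their likeness rests partly on values near the limit of detection. Edn1 had Fgd3 (0.266), P2ry6 (0.291) and Mycl (0.296) as its nearest, with 18 within 0.5.
The profiles of Ece1 and Ece2 were shared by many more genes, 722 and 619 within 0.5. Nearest to Ece1 were Gm25657 (0.0854), Tcp11l2 (0.0908) and Extl2 (0.102), and nearest to Ece2 the processed pseudogenes Rps13-ps5 (0.149), Gm5393 (0.170) and Rpl38-ps1 (0.182). Edn2 and Edn3 had means under 10 normalized counts and were not compared.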

How the data were processed

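RNA of 6 libraries (3 Col6a1+, 3 Col6a1- CAF) was sequenced as 3′ QuantSeq libraries on an Ion Proton. The authors mapped reads with TopHat2 and Bowtie2 to mm10, counted reads per gene with GenomicRanges, normalized with DESeq through metaseqR and deposited the log2 of normalized counts plus 1. Whether counting used strand is not given in the sources used here. The normalized counts are whole in 100% of values, rounded by the authors, so reads could not be recovered and a count test was not used. The deposited table also holds the authors' signal per gene length (normalized count divided by gene length), used for levels per kb, and their p-values, false discovery rates, fold changes and group means, which were not used.

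With limma 3.58.1 (R 4.3.3; lmFit, eBayes with trend, two-sided), the log2 values of 26402 genes with at least 1 normalized count were fitted by group and adjusted by the Benjamini-Hochberg method over all of them, with a gene called at an adjusted p under 0.05. The code was tested on simulated data. Balances of 2 genes were compared by exact permutation with SciPy 1.17.1. The alternatives were library size alone, a pseudocount of 0.1, a mean of at least 10 normalized counts, no filter, the replicate block (alone and with that mean), array weights and leaving out each library. The study's text does not say outright whether same-numbered libraries share mice, and its count of samples is given with the pairing check. The p-values measure the spread between these libraries. The pairing check is given with the results.

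The members, lists and tests were chosen with earlier results of these data known. The genes named are the 7 members, list genes called or with the 2 largest changes among those not called in each list, the 3 nearest genes of each member with a mean of at least 10, genes that overlap a member, and Col6a1. Epcam, Pecam1, Sox10, Ret, Esam and Tie1 were named after their values were seen, and 1 symbol found on 2 rows was read from the first. Of the pathway lists chosen, 1 whole list and 1 gene of another are not reported here. Promoter windows are from RefSeq (all 7 members matched, with 10 windows). Coordinates are 1-based on mm10. Depth limits low values as given with the libraries.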

Additional observations from a re-analysis of the deposited data

How the results depend on the processing

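All 7 endothelin genes kept the direction of their difference under every alternative that gave a value; Edn2 and Edn3 had none where a mean of 10 normalized counts was required. For Ednra (3.88), Ednrb (4.80) and Ece1 (1.55) the calls in limma held with library size alone, a pseudocount of 0.1, genes averaging 10 or more normalized counts, array weights and the replicate block among genes of that average. With the replicate block over all genes the adjusted p was 0.0612 for Ednra, 0.0612 for Ednrb and 0.0635 for Ece1. Without a filter, which adjusts over all 49548 genes, it was 0.0573 for Ednra and 0.126 for Ece1, while Ednrb kept its call. Edn1 (-3.19) was called with the block among genes averaging 10 or more (adjusted p = 0.0385) and under no other alternative. Among genes of that average, the block changed no other call of an endothelin gene, while over all genes it removed those of Ednra, Ednrb and Ece1.

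Leaving out 1 library at a time gave log2 fold changes of 3.56 to 4.12 for Ednra, 4.66 to 4.92 for Ednrb, 1.37 to 1.72 for Ece1, 0.17 to 0.89 for Ece2, -3.90 to -2.05 for Edn1, -1.41 to -0.91 for Edn2 and -1.96 to -0.11 for Edn3. The difference in receptor balance was then 0.54 to 1.29 and that in enzyme balance 0.49 to 1.53, and neither had a p under 0.05 in any setting, which 3 against 3 libraries cannot give.

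Of all genes, 703 were higher and 517 lower in limma, against 21 and 7 without a filter and 0 and 0 with the replicate block. The number lower was 336 with a pseudocount of 0.1, 871 with the block among genes averaging 10 or more and 969 with array weights. Leaving out 1 library gave 0 to 98 higher and 0 to 166 lower. Of the pathway genes, 8 were higher and 1 lower, against 2 and 0 without a filter, 0 and 0 with the block, 10 and 1 with the block among genes averaging 10 or more, and 0 lower with a pseudocount of 0.1. Leaving out 1 library gave 0 to 3 higher and 0 lower. The causes of these shifts were not tested. Depth limits the ligands: Edn2 never exceeded 5 normalized counts, and 3 reads are worth 1.98 to 3.99.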
